A study of Homo sapiens with 8 samples.

Results

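Glypicans and syndecans are the cell-surface heparan sulfate proteoglycans, and their transcripts were followed in cancer stem cells (CSCs) of a breast cancer line with knockdown of N-cadherin (CDH2) or connexin 43 (Cx43). The human family has 10 genes, of which 7 had a row among the 12939 genes measured: the glypicans GPC1, GPC4 and GPC6 and the syndecans SDC1, SDC2, SDC3 and SDC4. GPC2, GPC3 and GPC5 had no row in the filtered tables and were not analysed here. The family was chosen by a measured value, the large difference of GPC6 between Cx43 knockdown and scramble. The values of the 7 genes in that comparison are therefore given as a description, without a test. The values of GPC6 in the other comparisons are given in the same way.

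The study asked how CDH2 and Cx43 act in CSCs that make gap junctions with cells of the bone marrow. All cells were MDA-MB-231, a line of basal-type breast cancer without estrogen receptor, and all carried green fluorescent protein (GFP) driven by the regulatory region of Oct4a, so the brightest GFP cells were taken as CSCs. A vector for short hairpin RNA (shRNA) with red fluorescent protein was stably present in every group. It held a scramble sequence (3 libraries), shRNA to CDH2 (3 libraries) or shRNA to Cx43 (2 libraries). For CDH2 the paper selected what it calls Clone B, without saying whether this was a clone of cells or an shRNA construct. Puromycin selected the shRNA vector and G418 kept the GFP reporter in all groups. Cells bright in both colours were sorted and kept overnight before total RNA was depleted of ribosomal RNA and sequenced. The transcripts of CDH2 and of the gene for Cx43 were not analysed here, so neither knockdown was checked in these libraries, and the sources used here do not say that libraries of a group came from separate cultures. P-values then measure only the spread between libraries, which may be technical.

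Every proteoglycan of this family has a core protein to which long sulfated sugar chains are attached. Glypicans are held on the outer membrane by a lipid anchor, whereas syndecans cross the membrane and have a short cytoplasmic tail that binds PDZ proteins and the cytoskeleton. The chains bind fibroblast growth factors (FGFs), Wnt proteins, midkine and fibronectin, and the sulfation pattern set by Golgi enzymes sets what they bind. SDC1 and GPC1 are known to be raised in many breast tumors.

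Values were log2 of CPM (read counts scaled to a common library total) plus 1, from which the authors had removed the effect of the replicate number. Read totals were not given, so the depth is unknown. How much noise from few reads adds to the spread of low genes such as GPC6 could not be told. The CPM of the genes present summed to between 684411 and 727083 per library. Correlations between libraries were 0.987 to 0.997 within groups (7 pairs) and 0.959 to 0.990 between groups (21 pairs). All 8 markers of a mesenchymal breast cancer line were present, with a summed level of 2620 to 2750 CPM in scramble, 2850 to 3150 in CDH2 knockdown and 2780 to 3000 in the Cx43 libraries. Of 8 luminal markers EPCAM and KRT8 were (331 to 394, 256 to 306 and 315 to 318 CPM in the same order), with no row for ESR1, PGR, GATA3, FOXA1, CDH1 or KRT19. Of 6 fibroblast markers, COL1A1 and PDGFRB had a row, with a summed level of 53.7 to 66.3 CPM in scramble, 40.4 to 52.6 in CDH2 knockdown and 29.6 to 40.2 in Cx43 knockdown. Of 6 leukocyte markers CD68 had a row (17.1 to 17.5, 17.5 to 21.5 and 12.6 to 15.9 CPM), and of 4 endothelial markers PECAM1 (3.48 to 4.67, 2.18 to 2.85 and 2.81 to 3.49 CPM). The share of CPM from 13 mitochondrial genes was 0.594 to 1.01% in scramble, 1.16 to 2.03% in CDH2 knockdown and 1.25 to 2.36% in Cx43 knockdown, and the part of these markers and of this share in the differences below was not tested. In bulk RNA, fewer cells that express a gene and less of its RNA per cell cannot be told apart.

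Levels of different genes were compared per length, as CPM per kb of merged exon. In scramble, SDC4 stood highest at 94.9 CPM per kb (90.6 to 99.3 over 3 libraries). SDC2 (29.2, range 26.5 to 32) and SDC1 (28.8, range 25.8 to 32) followed and overlapped each other. GPC1 (10.9, range 10.6 to 11.3) and SDC3 (9.22, range 7.64 to 10.9) also overlapped. GPC4 was at 0.693 CPM per kb (0.617 to 0.77) and GPC6 was lowest at 0.0301 (0.0235 to 0.0352). In CDH2 knockdown SDC1 (29.7, range 27 to 32.9) did not overlap SDC2 (20.2, range 18.4 to 21.8), nor did it in Cx43 knockdown (27.6 to 33.6 and 24.2 to 24.9). The summed CPM of the 4 syndecans was 534.4 to 537.5 in scramble, and that of the 3 glypicans was 72.26 to 77.79. Both sums were lower in the knockdown libraries. They were 506.5 to 523.4 CPM (syndecans) and 62.53 to 69.21 CPM (glypicans) with CDH2 knockdown. With Cx43 knockdown they were 515.6 to 530.1 CPM and 69.45 to 71.99 CPM. The glypican sum was mostly GPC1 (mean 71.3 CPM in scramble), while GPC4 and GPC6 were higher in both knockdowns. SDC4 was the largest part of the syndecan sum and was higher with CDH2 knockdown (mean 276 CPM against 248 in scramble). In Cx43 knockdown the order by mean kept GPC6 last, at 0.4 CPM per kb (0.333 to 0.467).

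**Figure D1:**
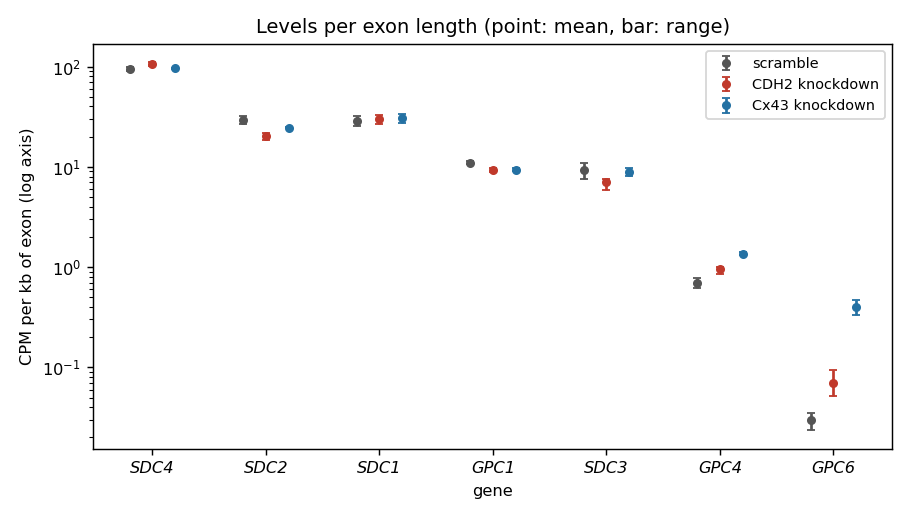
CPM per kb of merged exon (log axis) for the 7 genes, ordered by their mean in scramble. Points are group means over 3 scramble, 3 CDH2 knockdown and 2 Cx43 knockdown libraries, and bars run from the lowest to the highest library. SDC4 is highest in each group, and GPC6 lowest, from 0.0301 in scramble to 0.4 in Cx43 knockdown.

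GPC6, a glypican known for its role in the growth of long bones, showed the value for which the family was selected. Its log2(CPM + 1) was 0.29, 0.22 and 0.32 in the scramble libraries, 0.74, 0.45 and 0.53 in the CDH2 knockdown libraries, against 1.75 and 2.11 in the 2 Cx43 knockdown libraries. Both Cx43 libraries lay above all others, and the CDH2 libraries lay above scramble without overlap. In CPM the group means were 0.214, 0.497 and 2.85. The log2 fold change in Cx43 knockdown was 1.65 (standard error [SE] 0.16, n = 2 against 3), the 3rd largest of the 12939 genes, which is the value that chose the family. At levels this low the fold change depends on the pseudocount, and with 0.1 in place of 1 it was 3.24. Left out in turn, the Cx43 libraries gave 1.92 (without replicate 1) and 1.38 (without replicate 2). With CDH2 knockdown, against the same scramble libraries, the fold change was 0.30 (SE 0.13, higher in 3 of 3 same-numbered pairs). A pseudocount of 0.1 gave 0.90. These values are also a description, since the scramble values of GPC6 took part in the choice of the family. Without CDH2 knockdown replicate 1, the highest of its group, the fold change was 0.165.

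GPC6 entered the tables through the Cx43 libraries. The smallest maximum of any gene over the 8 libraries was 2.0007, which GPC6 exceeded in Cx43 knockdown replicate 2 (2.11) and nowhere else, and its highest value outside Cx43 knockdown was 0.74. There were 96 genes that reached this level in Cx43 knockdown alone. Of these 93 had a higher mean there than in scramble, with a median log2 fold change of 0.39. That direction is nearly fixed by how the 96 were picked. GPC6 had the largest difference of the 96, which is the value that chose the family, so nothing is read from this rank. The other 6 members passed this level in each group.

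GPC4, a glypican that takes part in Wnt and FGF signaling, had values in the same order as GPC6. They were 2.15, 2.02 and 2.27 in scramble, 2.54, 2.59 and 2.38 in CDH2 knockdown, against 2.91 and 2.99 in the 2 Cx43 knockdown libraries. No groups overlapped, and the mean CPM was 3.44, 4.69 and 6.72. The log2 fold change was 0.80 (SE 0.13) with Cx43 knockdown, given as a description. With CDH2 knockdown it was 0.36 (SE 0.11, 95% interval 0.10 to 0.62, higher in 3 of 3 same-numbered pairs). This did not pass the adjusted test over all genes (limma, adjusted p = 0.071). The limma adjusted p was 0.0123 without the replicate block and 0.0469 after quantile normalization. Without replicate 3 of either CDH2 knockdown or scramble it was 0.0066 (fold change 0.48). It was 0.256 and 0.207 without CDH2 knockdown replicate 1 or 2, and 0.329 and 0.207 without scramble replicate 1 or 2. With the compared groups alone it was 0.119. The fold change stayed between 0.26 and 0.48 over the alternatives. In CDH2 against Cx43 knockdown, the difference was -0.44 (95% interval -0.75 to -0.13, limma adjusted p = 0.167). The adjusted p was 0.0174 without the block and 0.0429 without replicate 3 of CDH2 knockdown or of scramble, which leave the same fit. Other settings gave a higher adjusted p than the main fit, and the difference ranged from -0.528 to -0.38 over the alternatives. Because the replicate effect was already removed, the fit without the block assumes more independent spread than the values hold. Its p-values may be too small, here and below.

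The promoters of GPC6 and GPC4 are shown because both genes stood above scramble in each library of both knockdowns. GPC6 lies on chromosome 13 (hg38, 93226807 to 94408020, plus strand) and spans 1181 kb, and GPC4 lies on the X chromosome (133300103 to 133415489, minus strand) and spans 115.4 kb. Each sequence runs 5′ to 3′ from 250 bases before to 50 bases after the annotated start (RefSeq, GRCh38.p14). Capitals mark 2 motifs searched on both strands. They are GGGCGG, which is bound by Sp factors, and TATAAA, the letters of the TATA box bound by the TBP protein. Whether a match is used as a site was not tested.
GPC6 promoter, chr13:93226557-93226856, plus strand: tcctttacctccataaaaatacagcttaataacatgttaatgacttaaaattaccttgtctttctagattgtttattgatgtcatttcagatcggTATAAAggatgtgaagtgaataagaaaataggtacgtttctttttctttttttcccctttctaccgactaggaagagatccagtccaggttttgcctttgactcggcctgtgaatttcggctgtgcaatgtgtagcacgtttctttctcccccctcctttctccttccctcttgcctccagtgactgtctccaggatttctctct
GPC4 promoter, chrX:133415440-133415739, minus strand: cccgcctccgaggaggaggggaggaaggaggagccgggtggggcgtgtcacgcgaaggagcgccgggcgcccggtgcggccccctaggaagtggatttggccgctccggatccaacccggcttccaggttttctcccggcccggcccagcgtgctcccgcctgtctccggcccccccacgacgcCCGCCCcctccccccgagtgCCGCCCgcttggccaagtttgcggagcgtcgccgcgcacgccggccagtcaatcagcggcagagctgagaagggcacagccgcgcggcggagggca
The GPC4 window had 74.7% G and C and 37 CpG dinucleotides, with 2 matches to GGGCGG, both on the opposite strand. The GPC6 window had 40% G and C, 6 CpG dinucleotides and 1 TATAAA beginning 155 bases before the start, and the median over 35116 promoters was 58.7% G and C. GGGCGG was present in 45% of these promoters and TATAAA in 11.5%. Neither window held TGACTCA (AP-1 site, 4.95% of promoters) or CACCTG (an E-box bound by ZEB and SNAI factors, 20.6%), searched on both strands.

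Among genes near GPC6, the nearest one measured on the right was TGDS, 166 kb away, with a log2 fold change of 0.06 in Cx43 knockdown (adjusted p = 0.746) and -0.07 in CDH2 knockdown (adjusted p = 0.578). On the left it was PTMAP5, a processed pseudogene, 11535735 bases away, whose reads may be shared with its parent gene (0.64, adjusted p = 0.0849 or 0.00522 without the replicate block, and -0.10, adjusted p = 0.526). Positions were available for 11812 of the 12939 genes, so a gene without one may lie nearer to GPC6 or overlap a member. None of the measured genes with a position overlapped a family member. GPC6 is one of 121 such genes that span over 500 kb. Of these long genes, 3 rose and 3 fell past the threshold in Cx43 knockdown, where 1.18% of all genes were past it. The 3 that rose include GPC6, which is past the threshold by the choice of the family. The median log2 fold change of the long genes there was -0.04, beside 0.04 over all genes. In CDH2 knockdown 3 rose and 0 fell, where 2.06% of all genes were past the threshold, with a median of 0.12 beside 0.01.

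Over the 8 libraries the 3 genes with values most like those of GPC6 were PRDX3 (Pearson r = 0.9979), a mitochondrial peroxiredoxin, TLE2 (r = 0.9967), a transcriptional corepressor, and SLC37A4 (r = 0.9967), the glucose 6-phosphate transporter. There were 306 genes with r above 0.9, and the 8 points share 3 groups and the same removal of the replicate effect. Their log2 fold changes in Cx43 knockdown, given without a test because likeness to GPC6 chose them, were 0.28 for PRDX3, 1.37 for TLE2 and 0.53 for SLC37A4. Within the family, r with GPC6 was 0.914 for GPC4, -0.519 for GPC1 and between -0.202 and 0.168 for the syndecans.

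GPC1, a glypican that binds FGFs and is abundant in many carcinomas, differed in the other direction. It was at 6.17, 6.13 and 6.22 in scramble, 5.89, 6.02 and 5.88 in CDH2 knockdown, against 6.002 and 5.91 in the 2 Cx43 knockdown libraries. Each knockdown library was below each scramble library, and the knockdown groups overlapped. The log2 fold change with CDH2 knockdown was -0.25 (SE 0.09, 95% interval -0.46 to -0.04, lower in 3 of 3 pairs). This was not past the adjusted test (limma, adjusted p = 0.0967, or 0.0135 without the replicate block). The limma adjusted p was 0.376 without CDH2 knockdown replicate 1, 0.456 without scramble replicate 1 and 0.151 with the compared groups alone. Only the fit without the block was under 0.05. With Cx43 knockdown the log2 fold change was -0.22 (SE 0.10). The difference between the knockdowns was -0.03 (95% interval -0.28 to 0.22, adjusted p = 0.892). GPC1 is on chromosome 2 (240435663 to 240468076, plus strand).

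**Figure D2:**
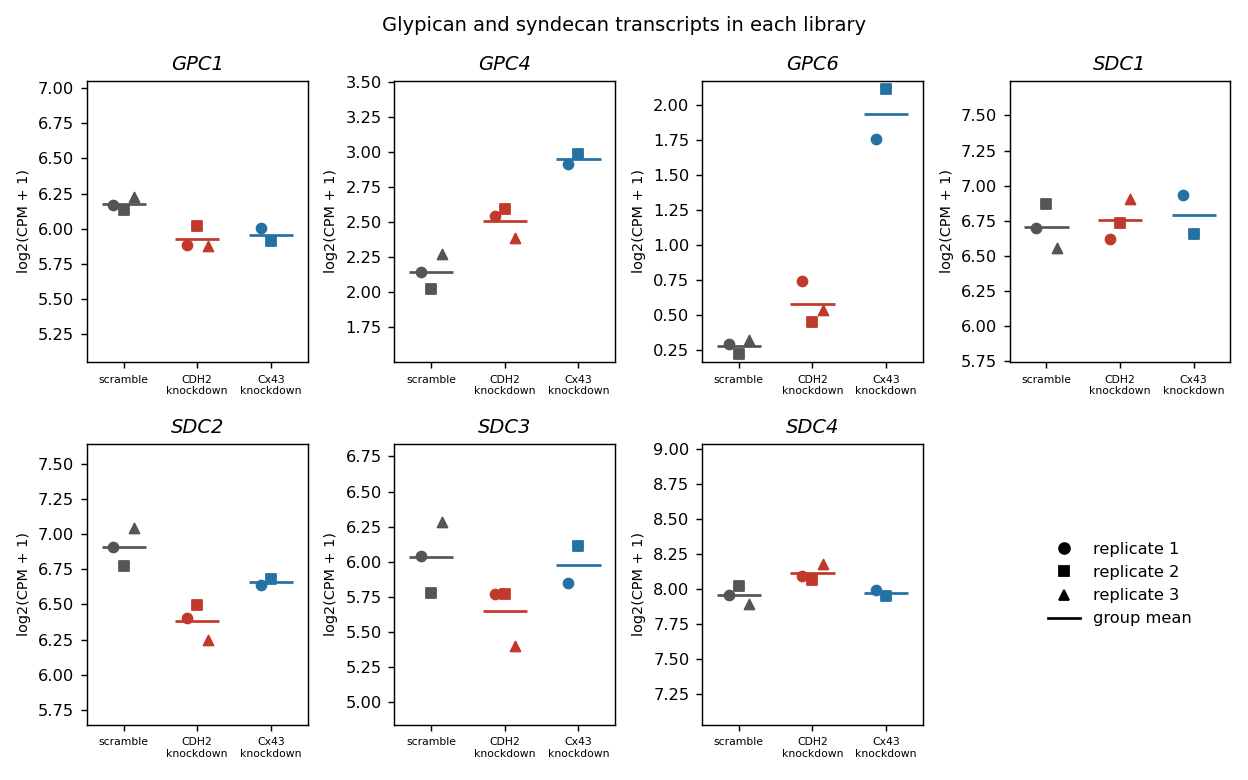
log2(CPM + 1) of each family member in each of the 8 libraries, by group, with marker shape for the replicate number and a line at the group mean. Each panel spans the same range of log2 units around its own centre. GPC6 and GPC4 are highest in the Cx43 libraries, and SDC2 is lowest in the CDH2 libraries.

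SDC2, the syndecan typical of mesenchymal cells, had the lowest adjusted p of the family in CDH2 knockdown. Its values were 6.91, 6.77 and 7.04 in scramble, 6.40, 6.495 and 6.25 in CDH2 knockdown, against 6.64 and 6.68 in the 2 Cx43 knockdown libraries. The 3 groups did not overlap. The log2 fold change with CDH2 knockdown was -0.53 (SE 0.11, 95% interval -0.80 to -0.25, lower in 3 of 3 pairs), with an adjusted p of 0.0387 (limma), and the 1.44-fold difference was under the 1.66-fold that the study asked of this knockdown. The limma adjusted p was above 0.05 without CDH2 knockdown replicate 1 (0.137) or 2 (0.0851), without scramble replicate 1 (0.213) and with the 2 compared groups alone (0.0782). Leaving out either Cx43 library only repeated the fit of the compared groups alone. The fold change stayed between -0.63 and -0.39 over the alternatives. With Cx43 knockdown it was -0.25 (SE 0.13). CDH2 against Cx43 knockdown differed by -0.28 (95% interval -0.61 to 0.05, adjusted p = 0.305). SDC2 lies on chromosome 8 (96493813 to 96611790, plus strand).

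SDC3, the syndecan first known from neural tissue, had the widest spread of the family within scramble and within CDH2 knockdown (SD 0.25 and 0.21). It was at 6.04, 5.78 and 6.28 in scramble, 5.77, 5.77 and 5.40 in CDH2 knockdown, against 5.85 and 6.11 in the 2 Cx43 knockdown libraries. The CDH2 libraries lay just below scramble, and the Cx43 libraries lay within the range of scramble. The log2 fold change with CDH2 knockdown was -0.39 (SE 0.18, 95% interval -0.84 to 0.06, lower in 3 of 3 pairs, limma adjusted p = 0.178). Without scramble replicate 2 it was -0.59 (adjusted p = 0.0202), and without replicate 3 of CDH2 knockdown or of scramble it was -0.14 (adjusted p = 0.421). With Cx43 knockdown the fold change was -0.05 (SE 0.22), and the knockdowns differed by -0.33 (95% interval -0.86 to 0.20, adjusted p = 0.43). SDC3 is on chromosome 1 (30869466 to 30908758, minus strand).

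SDC4, a component of focal adhesions that binds protein kinase C alpha, was at 7.96, 8.03 and 7.89 in scramble, 8.09, 8.07 and 8.18 in CDH2 knockdown, against 7.99 and 7.95 in the 2 Cx43 knockdown libraries. The CDH2 libraries were above scramble by a small margin, and the Cx43 libraries lay inside the range of scramble. CDH2 knockdown gave a log2 fold change of 0.15 (SE 0.08, 95% interval -0.05 to 0.36, limma adjusted p = 0.225), which was 0.087 without replicate 3 of CDH2 knockdown or of scramble (adjusted p = 0.561). Cx43 knockdown gave 0.01 (SE 0.10). The sign with Cx43 knockdown was not stable, with -0.07 after quantile normalization. The knockdowns differed by 0.14 (95% interval -0.10 to 0.38, adjusted p = 0.452). SDC4 is on chromosome 20 (45325288 to 45348424, minus strand).

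SDC1, the main syndecan of epithelia and plasma cells, overlapped in all 3 groups. It was at 6.70, 6.87 and 6.56 in scramble, 6.62, 6.73 and 6.90 in CDH2 knockdown, against 6.93 and 6.65 in the 2 Cx43 knockdown libraries. Its log2 fold change was 0.05 (SE 0.14, 95% interval -0.30 to 0.39, limma adjusted p = 0.832) with CDH2 knockdown, where quantile normalization gave -0.005, and 0.09 (SE 0.16) with Cx43 knockdown. The knockdowns differed by -0.04 (95% interval -0.44 to 0.36, adjusted p = 0.907). SDC1 is on chromosome 2 (20200797 to 20225433, minus strand).

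Over the family, 0 of 7 members passed the adjusted p and the 1.66-fold threshold in CDH2 knockdown (limma), where 2.06% of all genes did. GPC6 is counted here as a description, since its scramble values took part in the choice. An adjusted p under 0.05 alone was reached by 1 member (SDC2), beside 14.3% of all genes, and an unadjusted p under 0.05 by 3 (SDC2, GPC4 and GPC1), beside 37.5% of all genes. Groups did not overlap for 6 of 7 members, 3 higher (GPC4, GPC6 and SDC4) and 3 lower (GPC1, SDC2 and SDC3), beside 51.9% of all genes. The median log2 fold change of the members was 0.05, and over all genes 0.007. In Cx43 knockdown, the comparison that chose the family, GPC6 was past the 1.5-fold threshold by that choice, so nothing is read from its place among the 1.18% of all genes that were. Groups there did not overlap for 4 of 7 members, beside 52.8% of all genes, with GPC4 and GPC6 higher and GPC1 and SDC2 lower. The median there was 0.01 for the members and 0.04 for all genes. Both comparisons used the same scramble libraries. Between the knockdowns 0 of the 6 members other than GPC6 were past the threshold, as were 0% of all genes (limma), although the unadjusted p was under 0.05 for 1 of the 6 (GPC4) and for 2591 of 12939 genes. A fit that left out the replicate block put 360 genes past it. The difference of GPC6, -1.36, rests on the libraries that chose the family and is given as a description.

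**Figure D3:**
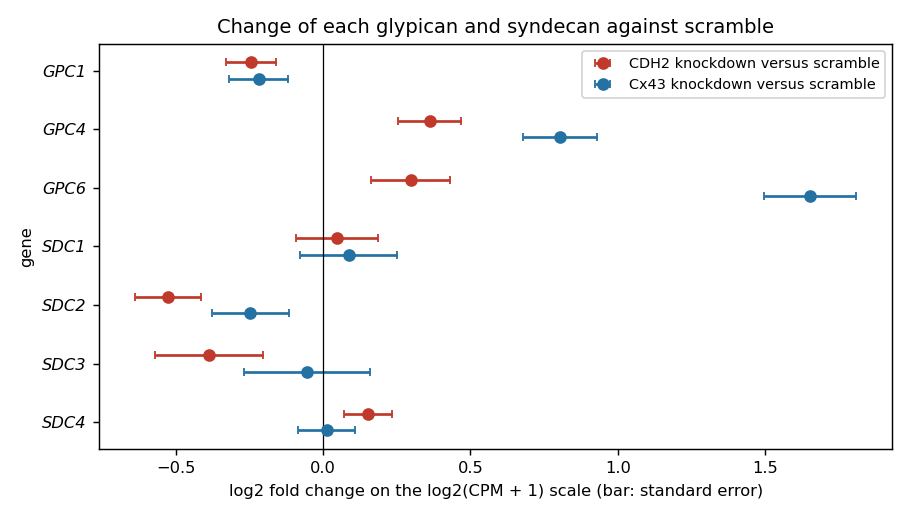
log2 fold change (log2(CPM + 1) scale) of each family member in CDH2 knockdown and in Cx43 knockdown, each against the same 3 scramble libraries. Points are estimates from the model over 8 libraries and bars are standard errors. GPC6 and GPC4 lie to the right in both, from 0.30 and 0.36 with CDH2 knockdown to 1.65 and 0.80 with Cx43 knockdown, and SDC2 lies farthest left with CDH2 knockdown, at -0.53.

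The other genes of the heparan sulfate pathway were taken from 6 lists of 116 genes, 77 of them measured. In CDH2 knockdown 1 of the 77 rose past the threshold (HS3ST3B1) and 1 fell (MDK), where 2.06% of all genes were past it. In Cx43 knockdown 1 of the 77 rose (HS3ST3B1) and 1 fell (FGF1), where 1.18% of all genes were past the threshold. The median log2 fold change of the 77 was -0.01 and -0.06. Between the knockdowns 0 of 77 passed (limma), as did 0% of all genes. The unadjusted limma p there was below 0.05 for 14 of the 77, beside 20% of all genes. A fit that left out the block put 4 past the threshold there and 4 in Cx43 knockdown.

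HS3ST3B1, an enzyme that adds the rare 3-O-sulfate to heparan sulfate chains, was at 3.07, 3.13 and 3.004 in scramble, 3.89, 3.80 and 3.94 in CDH2 knockdown, and 4.05 and 4.07 in the Cx43 libraries. All 5 knockdown libraries lay above the 3 scramble libraries. The log2 fold change was 0.81 (SE 0.08, limma adjusted p = 0.0167) with CDH2 knockdown and 0.99 (SE 0.10, adjusted p = 0.0349) with Cx43 knockdown. The difference between them was -0.19 (95% interval -0.43 to 0.06, adjusted p = 0.345). Its paralog HS3ST3A1, near-identical in the catalytic part, had no row, and the level of HS3ST3B1 is uncertain where reads fit both. The other measured genes of the sulfation list (11 of 21 measured) did not pass in either knockdown, and the list medians were 0.20 and 0.13.

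MDK, which encodes the heparin-binding growth factor midkine, was at 4.38, 4.50 and 4.26 in scramble, 3.58, 3.41 and 3.68 in CDH2 knockdown, against 4.15 and 4.21 in the 2 Cx43 knockdown libraries. The CDH2 libraries were all lower than the others. Its log2 fold change was -0.82 (SE 0.11, limma adjusted p = 0.0209) with CDH2 knockdown and -0.20 (SE 0.13, adjusted p = 0.436) with Cx43 knockdown, a difference of -0.62 that did not pass (adjusted p = 0.129, or 0.00787 without the replicate block). FGF1, an FGF that needs heparan sulfate to bind its receptors, was at 3.38, 3.47 and 3.31 in scramble, 3.10, 3.20 and 3.27 in CDH2 knockdown, against 2.53 and 2.34 in the 2 Cx43 knockdown libraries. The Cx43 libraries were the lowest. Its log2 fold change was -0.95 (SE 0.12, limma adjusted p = 0.0375) with Cx43 knockdown and -0.19 (SE 0.10, adjusted p = 0.213) with CDH2 knockdown. The difference of 0.76 did not pass (limma adjusted p = 0.115, or 0.00317 without the block). Over the alternatives the difference between the knockdowns ranged from -0.684 to -0.473 for MDK and from 0.612 to 0.903 for FGF1. Other settings gave both differences a higher adjusted p than the main fit. The ligand and receptor list (23 of 40 measured) had medians of -0.06 and -0.20. WNT5B in that list had an adjusted p of 0.0475 with CDH2 knockdown at a log2 fold change of -0.29, below the fold threshold.

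These calls also depended on which libraries were in the fit. The CDH2 knockdown calls of HS3ST3B1 and MDK were lost without CDH2 knockdown replicate 1 (limma adjusted p = 0.0954 and 0.0979) or 2 (0.0751 each). They were also lost without scramble replicate 1 (0.106 and 0.113) and with the compared groups alone (0.0561 and 0.0567). Leaving out either Cx43 library only repeated the fit of the compared groups alone. The Cx43 knockdown calls of HS3ST3B1 and FGF1 were lost without CDH2 knockdown replicate 1 (0.0595 and 0.0642) or 2 (0.0663 and 0.0728), Cx43 knockdown replicate 1 (0.211 each) or 2 (0.334 and 0.341) and scramble replicate 1 (0.153 and 0.183). Leaving out a library did not turn the direction of any of the 4 calls, whose fold changes stayed at 0.74 to 0.87 (HS3ST3B1) and -0.94 to -0.70 (MDK) with CDH2 knockdown and at 0.96 to 1.06 (HS3ST3B1) and -1.098 to -0.81 (FGF1) with Cx43 knockdown.

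**Figure D4:**
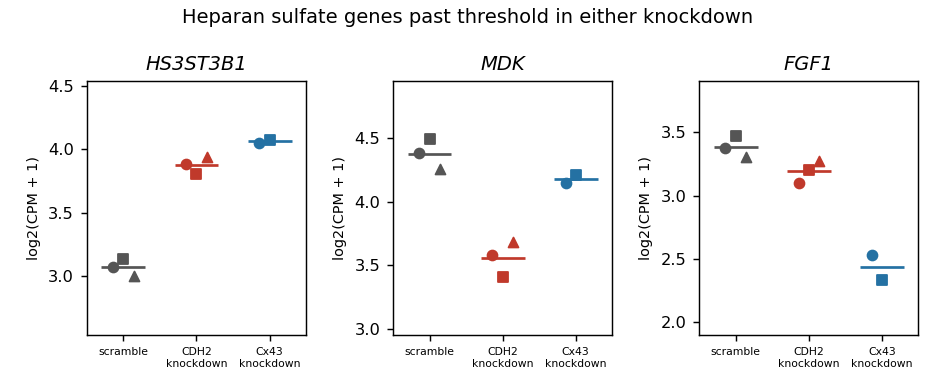
log2(CPM + 1) of HS3ST3B1, MDK and FGF1 in each of the 8 libraries, with marker shapes for replicates 1 (circle), 2 (square) and 3 (triangle) and a line at the group mean. HS3ST3B1 is higher in both knockdowns, MDK is lowest in the CDH2 libraries and FGF1 is lowest in the Cx43 libraries.

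In the remaining lists no measured gene passed the threshold in either knockdown. Of the other heparan sulfate proteoglycans (7 of 7 measured, medians 0.05 and -0.14), the largest log2 fold changes were those of SRGN in CDH2 knockdown (-0.31, limma adjusted p = 0.0563) and AGRN in Cx43 knockdown (0.50, adjusted p = 0.31), which encode serglycin and agrin. Among enzymes that build the linkage and polymerise the chain (10 of 12, medians -0.01 and 0.10), they were those of B3GAT3, the linkage glucuronyltransferase (-0.51, adjusted p = 0.0705), and PXYLP1, the xylose phosphatase (0.66, adjusted p = 0.184). Among genes for editing and breakdown of chains (8 of 13, medians -0.22 and -0.14), they were those of the lysosomal enzymes NAGLU (-0.39, adjusted p = 0.0591) and IDS (-0.48, adjusted p = 0.343). Among cytoplasmic partners and shedding enzymes (18 of 23, medians 0.05 and -0.07), they were those of TIAM1, a Rac exchange factor that binds the SDC1 tail (0.45, adjusted p = 0.105), and the protease MMP9 (-0.74, adjusted p = 0.0671). In a fit that left the block out, p-values may be too small. There SRGN (0.00373), B3GAT3 (0.0166), NAGLU (0.00817) and TIAM1 (0.0339) passed a limma adjusted p of 0.05 in CDH2 knockdown, each short of 1.66-fold. PXYLP1 (0.0435) and MMP9 (0.00334) were past the threshold in Cx43 knockdown in that fit.

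**Figure D5:**
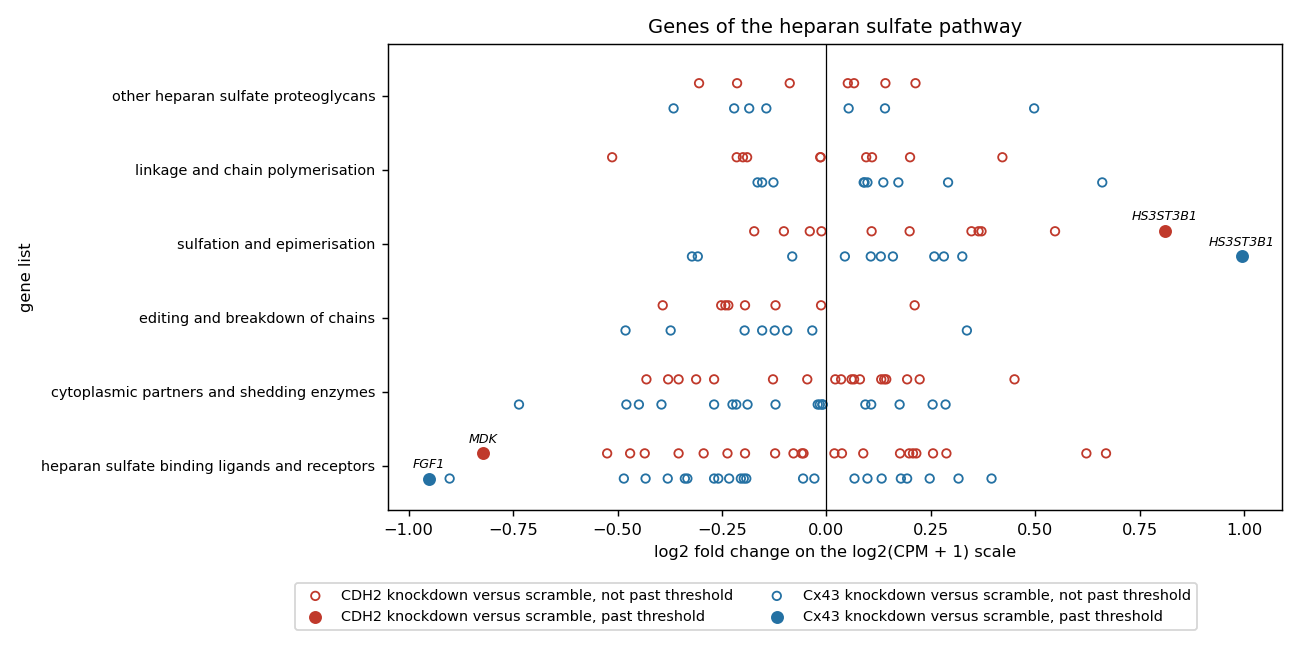
log2 fold change (log2(CPM + 1) scale) of the 77 measured pathway genes by list, in CDH2 knockdown (red) and Cx43 knockdown (blue), each against scramble. Filled points are past the threshold, HS3ST3B1 at 0.81 and 0.99, MDK at -0.82 and FGF1 at -0.95, and open points are not.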

How the data were processed

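Libraries were made from total RNA of sorted MDA-MB-231 CSCs with scramble, CDH2 or Cx43 shRNA (3, 3 and 2 libraries), as labelled. The deposited values were log2(CPM + 1) per gene. Per the methods and the submitters' processing notes, the authors aligned reads to hg38 with STAR (2.6.1 in the processing notes, while the methods name another version), estimated gene levels by expectation maximisation, removed genes with low values and 1 library of low quality, and removed the effect of replicate from the log values. The annotation and strand setting are not given in the sources used here. That removal left deviations from the group means that sum to at most 1e-04 within a replicate number. P-values therefore rest on little independent spread. The model had 3 residual degrees of freedom, while the residuals varied along only 2 directions, so p-values may be too small. The fit without the block had 5 residual degrees of freedom, so its p-values are affected more.

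Differences were tested with limma 3.58.1 (R 4.3.3) on all 8 libraries and 12939 genes, with group and replicate number as a block, and Benjamini-Hochberg adjustment over all genes. The numbers pair the libraries because the methods treat replicates as batches and the file headers share a run prefix within a number. A gene was past the threshold at an adjusted p below 0.05 when it also differed by at least 1.66-fold (CDH2 knockdown against scramble) or 1.5-fold (the other comparisons). Simulated data served to check the mean error of the fold changes, and the p-values were not checked in this way. Intervals are 95%, and a fold change on this scale understates low genes. CPM was obtained by reversing the log. Lengths, positions and neighbours came from GENCODE on hg38, which matched 11812 of the 12939 genes (91.3%), and promoters from RefSeq. Figures were drawn with matplotlib 3.10.9.

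The 7 genes and the lists were chosen with earlier results of these data known. Named genes were the family, list genes past the threshold or with the largest change of their list in each knockdown, the 3 genes with the highest r to GPC6 and its nearest measured neighbours. WNT5B was named after its value was seen. Alternatives were no block, 2 other scalings, a filter, a pseudocount, a variance trend, the compared groups alone, other thresholds and each library left out. For CDH2 knockdown against scramble, leaving out either Cx43 library repeated the fit of the compared groups alone. Leaving out replicate 3 of CDH2 knockdown or of scramble gave the same fit. These settings are therefore not separate checks.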

Additional observations from a re-analysis of the deposited data

How the results depend on the processing

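With 2 or 3 libraries per group and the replicate effect removed beforehand, calls moved more than fold changes did, and the cause was not tested. For members, the CDH2 knockdown count of 0 became 1 with no fold threshold. In the comparison that chose the family, where counts are a description, the Cx43 knockdown count of 1 became 2 with no replicate block, quantile normalization, the compared groups alone or an adjusted p under 0.1. It became 0 with the 75% of genes of highest mean, where GPC4 and GPC6 were not tested, and ranged from 0 to 2 with each library left out. Between the knockdowns the count of 0 became 1 (GPC6, also a description) with no replicate block or the compared groups alone, and 0 to 1 with a library left out. For pathway genes in CDH2 knockdown, the count of 2 became 0 with the compared groups alone and 0 to 5 with a library left out. In Cx43 knockdown the count of 2 became 4 with no replicate block, 0 with the 75% filter, 6 with the compared groups alone and 0 to 6 with a library left out. Between the knockdowns the count of 0 became 4, 5 (compared groups alone) and 0 to 7.

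Over all genes the CDH2 knockdown count of 267 became 150 with the 75% filter, 0 with the compared groups alone, 1846 with no fold threshold and 0 to 723 with a library left out. The Cx43 knockdown count of 153 became 532 with no replicate block, 4 with the filter, 741 with the compared groups alone, 363 with an adjusted p under 0.1 and 0 to 730 with a library left out. Between the knockdowns, 0 became 360, 414 and 0 to 545.

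Signs turned only for small changes. In CDH2 knockdown SDC1 became -0.005 with quantile normalization and ranged from -0.105 to 0.173 with a library left out, and AGRN from -0.032 to 0.515, PXYLP1 from -0.008 to 0.449, IDS from -0.371 to 0.193 and PTMAP5 from -0.23 to 0.008. In Cx43 knockdown SDC3 became 0.069 with the compared groups alone, and SDC4 became -0.067 with quantile normalization, -0.003 centred on the median and -0.021 with the compared groups alone. With a library left out, SDC1 ranged from -0.122 to 0.296, SDC3 from -0.308 to 0.14, SDC4 from -0.021 to 0.078, B3GAT3 from -0.322 to 0.045, NAGLU from -0.308 to 0.061 and TGDS from -0.052 to 0.18. Between the knockdowns GPC1 ranged from -0.119 to 0.039, SDC1 from -0.251 to 0.168 and TIAM1 from -0.041 to 0.3.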
